A study of Mus musculus with 6 samples.

Results

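The Serpina1 and Serpina3 genes of the mouse encode secreted protease inhibitors that the liver makes in large amounts, and Serpina6, their neighbour on chromosome 12, encodes corticosteroid-binding globulin, the plasma carrier of glucocorticoids. The members described here are the 10 rows of the deposited count table named Serpina1a, Serpina1b, Serpina1c, Serpina1d, Serpina1e, Serpina3k, Serpina3m, Serpina3n, Serpina3g and Serpina6, of 54232 rows in all. They were chosen by name, as the Serpina1 and Serpina3 genes of liver plus Serpina6, and all 10 were found. Because the copies share much of their sequence, each row is given by itself and the 5 Serpina1 rows and the 4 Serpina3 rows are also given as sums. RNA was sequenced from livers of Nogo-/- mice and of WT littermates, all aged 8 weeks and fed normal chow, with 3 libraries of each genotype. Nogo is the product of Rtn4, a reticulon of the endoplasmic reticulum membrane. Numbers in the labels name the wild types as 2, 4 and 11 and the knockouts as 1, 2 and 4. The labels do not give the strain, the sex or the part of Rtn4 that was removed, and the p-values measure only the spread between these samples.

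A serpin inhibits its target protease by offering a flexible stretch near its carboxyl end, the reactive centre loop, as bait. When the protease cuts the loop, the serpin folds around it and the enzyme is trapped in a covalent complex, so the residues of the loop set which proteases are caught. People have a single SERPINA1 gene, whose product alpha-1-antitrypsin restrains neutrophil elastase, and a single SERPINA3 gene, whose product is alpha-1-antichymotrypsin. In mice each was copied into a series of genes with diverging loops, and the number of Serpina1 copies differs between inbred strains. Serpina6 shares the serpin fold, but its product carries steroid and is not known as a protease inhibitor.

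The loop is shown for the 9 members in which it was found, because it is where nearly identical copies can be told apart. All 9 stretches lie in the fifth and last coding exon of their gene on GRCm38 (the build also called mm10), and are written 5′ to 3′ along the coding strand. For the Serpina1 genes the stretch of 66 bases was taken at chr12:103853765-103853830 for Serpina1a, chr12:103728332-103728397 for Serpina1b, chr12:103895102-103895167 for Serpina1c, chr12:103763770-103763835 for Serpina1d and chr12:103947108-103947173 for Serpina1e, all on the minus strand. Capitals mark the 15 bases at which the 5 Serpina1 copies are not all the same.
Serpina1a: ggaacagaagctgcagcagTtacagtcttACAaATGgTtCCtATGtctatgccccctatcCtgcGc
Serpina1b: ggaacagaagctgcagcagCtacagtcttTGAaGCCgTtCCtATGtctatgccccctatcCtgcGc
Serpina1c: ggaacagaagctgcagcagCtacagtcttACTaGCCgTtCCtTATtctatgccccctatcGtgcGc
Serpina1d: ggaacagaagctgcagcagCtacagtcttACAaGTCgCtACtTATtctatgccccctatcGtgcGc
Serpina1e: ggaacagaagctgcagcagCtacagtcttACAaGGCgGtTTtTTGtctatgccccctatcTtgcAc

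Any 2 of these loops differed at 4 to 10 of the 66 bases. Serpina1c and Serpina1d were the closest pair, with 4 differing bases in 4 codons, and Serpina1a and Serpina1e the farthest, with 10 differing bases in 7 codons. The loop was not typical of the whole gene, since the 5 coding sequences of 1239 bases were 96.3% to 98.5% identical. Over the whole coding sequence Serpina1c was closest to Serpina1a, at 98.5%, although their loops differed at 9 bases.

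For the Serpina3 genes the loop was taken on the plus strand at chr12:104345269-104345337 for Serpina3k, chr12:104393769-104393843 for Serpina3m, chr12:104413448-104413522 for Serpina3n and chr12:104241072-104241146 for Serpina3g. Here capitals mark everything after the 8 leading bases that all 4 share.
Serpina3k: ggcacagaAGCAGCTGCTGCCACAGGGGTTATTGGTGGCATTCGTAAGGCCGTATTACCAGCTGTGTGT
Serpina3m: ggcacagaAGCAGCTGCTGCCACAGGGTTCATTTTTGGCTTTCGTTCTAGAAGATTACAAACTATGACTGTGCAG
Serpina3n: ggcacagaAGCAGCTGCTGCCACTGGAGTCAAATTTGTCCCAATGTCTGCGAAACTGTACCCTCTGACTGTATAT
Serpina3g: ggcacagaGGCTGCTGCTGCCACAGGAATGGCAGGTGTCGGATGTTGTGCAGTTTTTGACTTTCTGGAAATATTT

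The Serpina3 loops were less alike than those of Serpina1 and differed in length, with 69 bases in Serpina3k and 75 in each of the others. Over the coding sequence Serpina3k and Serpina3m were 91.0% identical, Serpina3m and Serpina3n 85.2%, and Serpina3k and Serpina3n 82.7%.

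How the authors treated reads that match several genes is not given in the sources used here, so the sequence shared between copies bears on every single row. Every stretch of 50 bases in the annotated transcripts of a member was looked up in the transcripts of all other genes. Both strands were searched, so exons opposite an antisense gene count too. Of these stretches, 79.3% recurred elsewhere for Serpina1c, 57.6% for Serpina1a, 50.9% for Serpina1d, 34.6% for Serpina1e and 29.5% for Serpina1b. Serpina1c shared 73.3% of its stretches with other members, 69.4% with Serpina1a and 36.6% with Gm8893, an unprocessed Serpina1 pseudogene nearby. The Serpina3 rows were more distinct. The shared portion was 19.1% for Serpina3m, 15.5% for Serpina3g, 14.0% for Serpina3k and 6.90% for Serpina3n, and no stretch of Serpina6 recurred. Longer stretches of 100 bases recurred less. There the portion was 69.3% for Serpina1c, 42.8% for Serpina1a, 29.3% for Serpina1d, 14.8% for Serpina1b and 14.4% for Serpina1e. It was at most 6.09% for the Serpina3 rows. Serpina3k lies inside the span of Serpina3m on the same strand, where their exons share 60 bases, and 429 exon bases of Serpina1c lie opposite exons of the antisense gene B430119L08Rik. Single Serpina1 rows are therefore uncertain, in particular Serpina1c and Serpina1a, and the cluster sum does not depend on how reads were divided among the 5 rows, though it would lack reads that were dropped.

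The libraries held 17568223 to 20902369 counts, and 3 counts, taken as the floor of detection, were worth 0.139 to 0.199 CPM, which here are counts relative to TMM-scaled library sizes. Such a floor covers counting error only. Rtn4 was at 49.8 ± 8.20 CPM in the wild types and 5.85 ± 2.05 CPM in the knockouts (mean ± SD, n = 3 per genotype). It fell by 3.08 ± 0.26 (SE) on the log2 scale (edgeR adjusted p = 0.00101), with 70 to 153 counts left in each knockout library. The 10 hepatocyte markers, of which Alb held most of the counts, were high in both genotypes, with Trf called higher and Cps1 lower, and summed to 92714.5 to 110043.7 CPM in the wild types and 82401.3 to 116476.9 CPM in the knockouts. Of the other resident cells, 3 of 7 tested endothelial markers and 1 of 5 bile duct markers fell, and 0 of 9 stellate cell markers were called in edgeR or limma-voom, where DESeq2 called 1 and 2 had an unadjusted edgeR p under 0.05. The knockout libraries stood apart by their mitochondrial transcripts, which took 28.6%, 19.7% and 11.8% of the counts in knockouts 1, 2 and 4, against 6.17% to 6.90% in the wild types. Knockout 4 lay closest to the wild types, and member values that change markedly without it are given both ways. With that share as a covariate, edgeR called none of the 13304 tested genes at an adjusted p under 0.05, where 1146 had an unadjusted p under 0.05, so no call of a member was kept there.

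Transcripts of the 10 members made up 1.83% to 2.19% of all counts in the wild types and 1.66% to 2.42% in the knockouts. All 10 passed the filter on low counts. Serpina1c rose 2.87-fold in the knockouts and Serpina3m fell to 0.36 of its wild-type level, while neither cluster sum nor any other row passed the test. Thus 1 of 10 members was called higher, where 8.76% of the 13304 tested genes were, and 1 of 10 was called lower, where 8.29% of them were. The groups did not overlap for 4 members, Serpina1a, Serpina1c, Serpina3m and Serpina3n, against 38.9% of tested genes. The median log2 fold change (knockout over wild type) was -0.04 over the members and 0.01 over all tested genes, with 5 members above 0 and 5 below. These shares are close to those of all genes. Tests were edgeR's quasi-likelihood F test with Benjamini-Hochberg adjustment over all tested genes, and "rose", "fell" and "called" mean an adjusted p under 0.05.

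**Figure D1:**
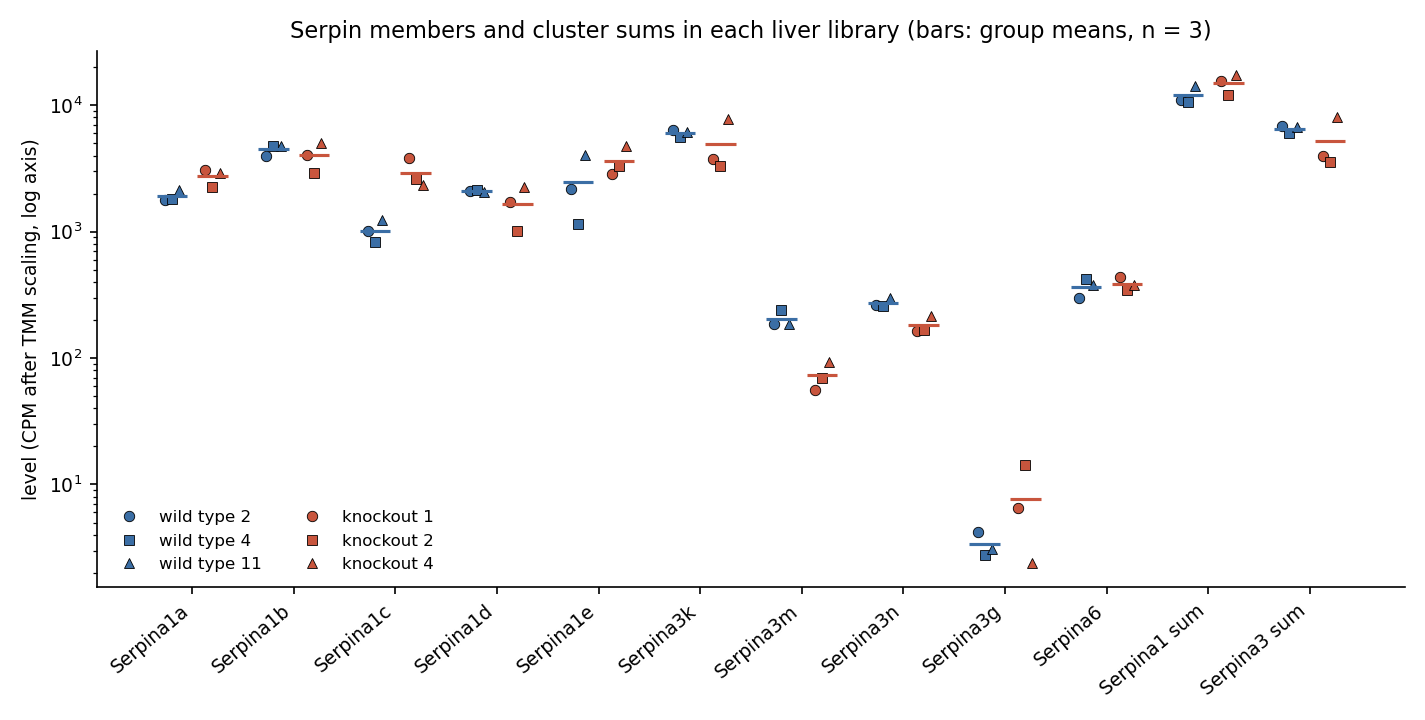
Level of each member and of both cluster sums in every library, in CPM after TMM scaling on a log axis, with blue points for the 3 wild-type livers, red points for the 3 knockout livers and bars at the group means. The red points lie above all blue points for Serpina1a and Serpina1c and below them for Serpina3m and Serpina3n, and knockout 4 (red triangle) lies above the other knockouts for Serpina3k and the Serpina3 sum.

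Values per library follow in the order wild type 2, 4 and 11, then knockout 1, 2 and 4, in CPM unless said otherwise. The summed Serpina1 rows, which count alpha-1-antitrypsin reads of any copy as far as the authors' counting kept them, came to 11012.1, 10659.8 and 14220.7 CPM in the wild types and 15521.5, 12071.2 and 17293.1 CPM in the knockouts. Knockout 2 lay below wild type 11, so the groups overlapped. The mean was 11964.2 ± 1962.1 CPM in the wild types and 14961.9 ± 2655.6 CPM in the knockouts, a log2 fold change of 0.32 ± 0.23 (SE) with an edgeR adjusted p of 0.356. The 95% interval of the fold ran from 0.88 to 1.79, so both a small fall and a rise of that size lie within it. For reference, 17.0% of the 13297 rows tested in the table with sums were called.

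Of the 5 copies, only Serpina1c passed the test. Serpina1c (chr12:103894926-103904887, minus strand) stood at 1003.1, 826.1 and 1228.8 CPM in the wild types and at 3842.8, 2600.1 and 2325.5 CPM in the knockouts. The lowest knockout was well above the highest wild type. The mean went from 1019.3 ± 201.8 to 2922.8 ± 808.5 CPM, a log2 fold change of 1.52 ± 0.25 (edgeR adjusted p = 0.00693). Knockout 1, with the largest mitochondrial share, had the highest value, and the part of that share in the result was not tested apart from the covariate fit, which gave 0.89 (adjusted p = 0.528). In knockout 4 alone against the wild types the log2 fold change was 1.19 (edgeR adjusted p = 0.0764). The call was kept in each of the 6 fits that left out 1 library, with values from 1.27 to 1.66.

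Serpina1a (chr12:103853589-103863562, minus strand), the copy with the most sequence in common with Serpina1c, stood at 1793.8, 1809.0 and 2150.2 CPM in the wild types and at 3068.8, 2253.9 and 2883.1 CPM in the knockouts. Every knockout was above every wild type, but knockout 2 only slightly so. The log2 fold change was 0.51 ± 0.21 and did not pass the test (edgeR adjusted p = 0.109). Since the 2 rows share most of their sequence, they were also summed, an alternative chosen after the values were seen. The sum rose from 2936.9 ± 391.1 to 5658.2 ± 1099.7 CPM, a log2 fold change of 0.95 ± 0.22 (edgeR adjusted p = 0.0197).

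Serpina1b (chr12:103728156-103830373, minus strand), the copy with the most counts, stood at 3937.1, 4756.3 and 4746.7 CPM in the wild types and at 4072.9, 2905.8 and 5052.8 CPM in the knockouts. The knockouts fell on both sides of the wild types, with a log2 fold change of -0.16 ± 0.24 (edgeR adjusted p = 0.672) that turned to 0.03 without knockout 2, to 0.17 in knockout 4 alone and to 0.07 with the mitochondrial covariate. Serpina1d (chr12:103763594-103773592, minus strand), whose gene lies within the span of Serpina1b, was steady in the wild types at 2105.1, 2118.2 and 2063.2 CPM. In the knockouts it was scattered at 1703.7, 1016.0 and 2248.9 CPM. Knockout 4 was above all wild types and the other knockouts were below them, and the log2 fold change of -0.34 ± 0.27 did not pass the test (edgeR adjusted p = 0.405). It was -0.64 (edgeR adjusted p = 0.0526) without knockout 4 and 0.10 in knockout 4 alone.

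Serpina1e (chr12:103946931-103958975, minus strand) varied most among the wild types, relative to its mean. It stood at 2176.3, 1153.1 and 4027.6 CPM in the wild types and at 2834.1, 3295.9 and 4776.5 CPM in the knockouts. Wild type 11 exceeded knockouts 1 and 2, and the log2 fold change of 0.57 ± 0.39 did not pass the test (edgeR adjusted p = 0.334). Single libraries moved it widely, to 1.12 (edgeR adjusted p = 0.0691) without wild type 11, to 0.22 without wild type 4 and to 0.31 without knockout 4. With the replicate number as a block it was 1.32 (edgeR adjusted p = 0.0180). Only numbers 2 and 4 occur in both genotypes, so that fit took no genotype difference from wild type 11 or knockout 1. The labels do not say that the numbers pair the samples.

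The make-up of the Serpina1 pool can be read within each library, where no scaling between libraries enters. Serpina1c took 9.11%, 7.75% and 8.64% of the Serpina1 counts in the wild types and 24.8%, 21.5% and 13.5% in the knockouts. All 3 knockouts were above all 3 wild types, and knockout 4 lay nearest to them. The exact two-sided permutation test over the 6 libraries gave p = 0.10, the smallest value that 3 against 3 libraries can reach. Serpina1b took 37.9% ± 5.92 in the wild types and 26.5% ± 2.59 in the knockouts, and Serpina1d 17.8% ± 2.90 and 10.8% ± 2.30. For both of them the groups were also apart, with the same smallest exact permutation p of 0.10. Serpina1a went from 16.1% ± 0.931 to 18.4% ± 1.57 and Serpina1e from 19.6% ± 8.76 to 24.4% ± 5.32, with groups that overlapped and exact permutation p-values of 0.20 and 0.70. Since the 5 shares of a library sum to the whole, they are not independent of each other. They also depend on the length of each row. With counts divided by exon length, the mean share of Serpina1c was 11.2% in the wild types and 25.0% in the knockouts. That of Serpina1b was then 28.3% and 18.8%, and that of Serpina1d 23.0% and 13.3%.

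Ratios of counts between copies show the same without a common total. Serpina1c was at 0.477, 0.390 and 0.596 of Serpina1d in the wild types, and at 2.26, 2.56 and 1.03 of it in the knockouts. Serpina1c had fewer counts than Serpina1d in every wild type and more in every knockout, by little in knockout 4. Because the copies share unequal portions of sequence with other genes, a count ratio gives no order of their transcript levels. Against Serpina1a, Serpina1c was at 0.559, 0.457 and 0.571 in the wild types and at 1.25, 1.15 and 0.807 in the knockouts. Serpina1b over Serpina1d changed less, from 2.14 ± 0.234 to 2.50 ± 0.321 (exact permutation p = 0.20).

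**Figure D2:**
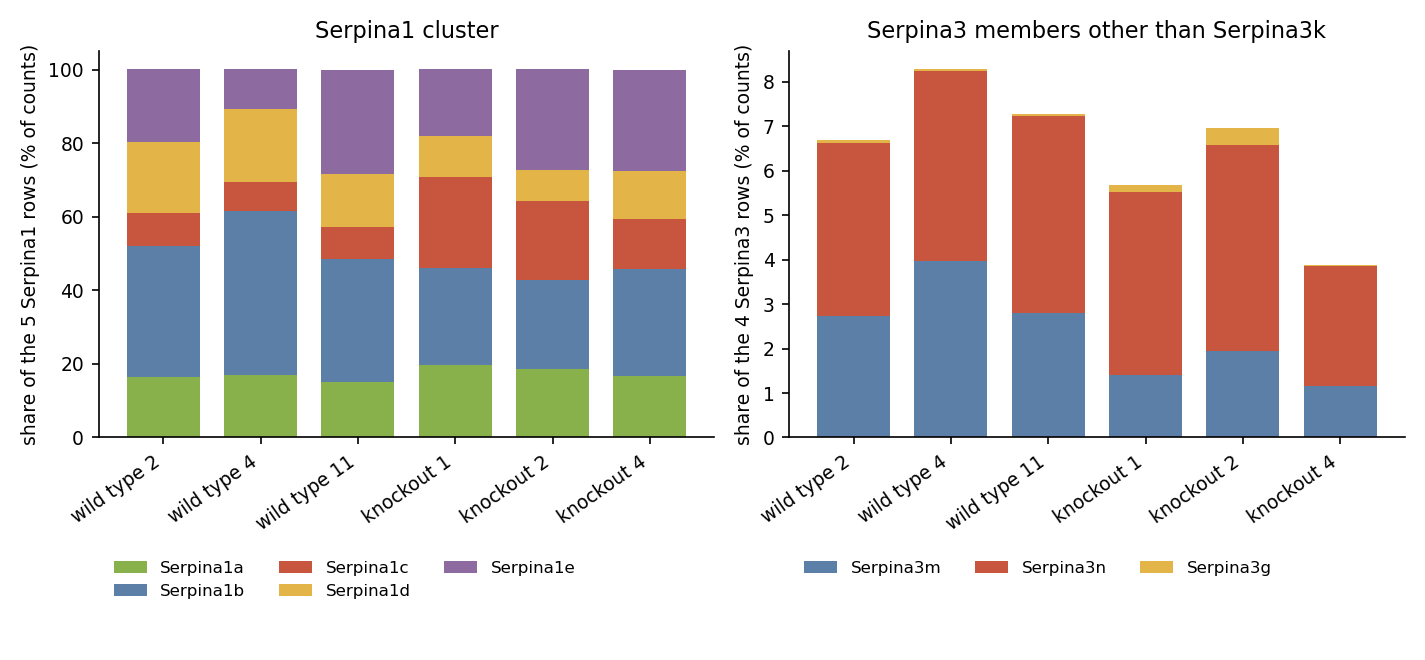
Share of each gene in the counts of its cluster, in percent, with 1 stacked bar per library, for the 5 Serpina1 rows on the left and for the Serpina3 rows other than Serpina3k on the right (Serpina3k makes up the rest to 100%, and the right axis is cut accordingly). The Serpina1c band widens from 8.50% ± 0.691 in the wild types to 19.9% ± 5.82 in the knockouts, and the Serpina3m band narrows from 2.74%, 3.98% and 2.79% to 1.40%, 1.94% and 1.16%.

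The Serpina3 rows summed to 6803.0, 6064.9 and 6678.5 CPM in the wild types. The knockouts disagreed among themselves, with 3989.7 and 3571.0 CPM in knockouts 1 and 2, below every wild type, and 8068.8 CPM in knockout 4, above every wild type. The log2 fold change of the sum was -0.32 ± 0.30 (edgeR adjusted p = 0.482), and its sign depended on the library. Without knockout 4 it was -0.80 (edgeR adjusted p = 0.00562), in knockout 4 alone 0.31 (adjusted p = 0.268), and with the mitochondrial covariate 0.40 (adjusted p = 0.759).

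Nearly all of that sum was Serpina3k (chr12:104338486-104346144, plus strand), known as contrapsin, an inhibitor of trypsin-like serine proteases. It took 92.6% ± 0.810 of the Serpina3 counts in the wild types and 94.5% ± 1.55 in the knockouts. Wild-type levels were 6350.1, 5563.9 and 6190.6 CPM, and knockout levels were 3763.2, 3322.5 and 7753.6 CPM. The wild types were close together, and the knockouts lay on both sides of them. Over the 6 libraries the log2 fold change was -0.29 ± 0.31 (edgeR adjusted p = 0.545). Without knockout 4 it was -0.78 (edgeR adjusted p = 0.00705), and it was 0.36 in knockout 4 alone and 0.45 with the mitochondrial covariate.

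Serpina3m (chr12:104338486-104394257, plus strand), a close copy of Serpina3k with a different loop, did not share this split. It stood at 186.6, 241.2 and 186.4 CPM in the wild types and at 55.9, 69.2 and 93.2 CPM in the knockouts. All 3 knockouts, knockout 4 included, lay below all 3 wild types. The mean fell from 204.7 ± 31.6 to 72.8 ± 18.9 CPM, a log2 fold change of -1.49 ± 0.22 (edgeR adjusted p = 0.00542). The call was kept in each of the 6 fits that left out 1 library, with values from -1.72 to -1.34. It was -1.14 (edgeR adjusted p = 0.0997) in knockout 4 alone and -0.92 (adjusted p = 0.464) with the mitochondrial covariate.

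Serpina3m and Serpina3k therefore parted within each library. Serpina3m was at 0.0294, 0.0434 and 0.0301 of Serpina3k in the wild types, and at 0.0149, 0.0208 and 0.0120 of it in the knockouts. Every knockout ratio was below every wild-type ratio (exact two-sided permutation p = 0.10, the smallest possible).

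Serpina3n (chr12:104406729-104414329, plus strand), the copy known as an inhibitor of granzyme B and neutrophil proteases and as a gene that inflammation and glucocorticoids induce, stood at 264.1, 258.7 and 296.5 CPM in the wild types. It stood at 164.3, 165.2 and 216.6 CPM in the knockouts, all below the wild types. The log2 fold change of -0.59 ± 0.18 missed the threshold narrowly (edgeR adjusted p = 0.0522). It passed under DESeq2 (adjusted p = 0.0243), under limma-voom (0.0397) and without knockout 4 in edgeR (-0.74, adjusted p = 0.00616), and in 6 of 15 alternatives in all, so its call depends on the processing. Against Serpina3n, Serpina3k was at 24.0, 21.5 and 20.9 in the wild types and at 22.9, 20.1 and 35.8 in the knockouts. The ratio was alike in 5 libraries and higher in knockout 4.

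Serpina3g (chr12:104236245-104241939, plus strand) encodes an inhibitor of lysosomal cysteine cathepsins known mainly from leukocytes. It had 52 to 89 counts in the wild types and 98, 265 and 40 counts in the knockouts, or 4.23, 2.77 and 3.11 CPM against 6.49, 14.2 and 2.41 CPM. Knockout 2 was far above all other libraries and knockout 4 was below all of them. The log2 fold change was 1.20 ± 0.50 (edgeR adjusted p = 0.123). It was 0.39 (edgeR adjusted p = 0.571) without knockout 2, 1.61 (adjusted p = 0.00845) without knockout 4 and -0.49 in knockout 4 alone. The summed leukocyte markers had the same order among the knockouts. Of the lymphocyte markers, 6 of 10 tested rose, and the list of 12 summed to 10.3 to 14.5 CPM in the wild types and to 31.2, 40.3 and 21.2 CPM in the knockouts. Of the neutrophil markers, 3 of 3 tested rose, and the list of 9 summed to 2.56 to 3.67 CPM in the wild types and to 13.9, 16.9 and 6.98 CPM in the knockouts. No marker of either list was at 0 in all libraries. None of the 8 tested macrophage markers was called by edgeR, DESeq2 or limma-voom, and none had an unadjusted edgeR p under 0.05. Their sums were 180.8 to 277.0 CPM in the wild types and 153.3, 304.9 and 132.4 CPM in the knockouts, again in that order. Knockout 4 lay below all wild types in the macrophage sum and above them in the lymphocyte and neutrophil sums. The part of these cells in the Serpina3g values was not tested, and in bulk tissue fewer cells of a type and less RNA per cell cannot be told apart.

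Serpina6 (chr12:103646630-103657212, minus strand) stood at 300.4, 421.5 and 377.1 CPM in the wild types and at 438.7, 348.4 and 376.8 CPM in the knockouts. The groups lay over each other. The log2 fold change was 0.08 ± 0.20 (edgeR adjusted p = 0.797), with a 95% interval of the fold from 0.79 to 1.43, and it went to -0.10 when library totals were used without TMM. A change in either direction within that interval was not detectable with 3 libraries per genotype.

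Counts divided by annotated exon length allow levels to be set between genes. In RPKM (CPM per kilobase of exon) Serpina3k led the wild types with 2933.8 ± 202.0, then Serpina1b with 1855.1 ± 194.7, Serpina1e with 1516.6 ± 901.0, Serpina1d with 1503.2 ± 20.6, Serpina1a with 1046.8 ± 110.0 and Serpina1c with 748.9 ± 148.3. Serpina6 followed with 208.0 ± 34.8 RPKM, Serpina3n with 132.3 ± 9.90, Serpina3m with 119.1 ± 18.4 and Serpina3g with 1.60 ± 0.361. In this order the ranges of Serpina1e and of its neighbours overlapped, as did those of Serpina3n and Serpina3m. The other neighbours were apart in all 3 wild types. Among the knockouts Serpina1c had rank 3, with 2147.6 ± 594.0 RPKM, behind Serpina3k with 2404.7 ± 1186.7 and Serpina1e with 2248.3 ± 627.6. Serpina1d had rank 6 there with 1188.1 ± 443.2 RPKM. The ranges of neighbours overlapped all the way from Serpina3k to Serpina1d, so neighbouring ranks from 1 to 6 are not resolved in the knockouts. Ranks further apart were partly resolved. Serpina1e and Serpina1c, with lowest knockout values of 1752.7 and 1708.7 RPKM, lay above Serpina1a and Serpina1d, with highest values of 1675.1 and 1613.3 RPKM. The lowest value of Serpina3k, 1615.2 RPKM, was just above the highest of Serpina1d. The places of Serpina6, Serpina3n, Serpina3m and Serpina3g were those of the wild types. The length used here includes bases shared between copies, so a row whose ambiguous reads were dropped, Serpina1c above all, would be set too low.

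The starts of the Serpina1 genes are shown next, because they lie ahead of copies of which 1 passed the test and the others did not. The RefSeq promoter table of GRCm38.p6 (250 bases before to 50 after each start) held 7 of the 10 members. Of the members, Serpina3k, Serpina3m and Serpina6 were not matched. Before the start, the longest run of bases common to all 5 Serpina1 promoters had 55 bases. It is shown from its first base up to the start, or for 90 bases in Serpina1e, and lies at chr12:103863620-103863679 for Serpina1a, chr12:103738190-103738254 for Serpina1b, chr12:103904951-103905016 for Serpina1c, chr12:103773634-103773688 for Serpina1d and chr12:103956925-103957014 for Serpina1e. The sequences are written along the minus strand. Capitals mark the only position at which those that reach it are not all the same.
Serpina1a: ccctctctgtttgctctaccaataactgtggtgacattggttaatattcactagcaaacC
Serpina1b: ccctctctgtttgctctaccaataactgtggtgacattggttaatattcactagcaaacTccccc
Serpina1c: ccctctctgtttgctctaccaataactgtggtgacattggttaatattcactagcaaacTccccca
Serpina1d: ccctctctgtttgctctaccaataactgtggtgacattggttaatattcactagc
Serpina1e: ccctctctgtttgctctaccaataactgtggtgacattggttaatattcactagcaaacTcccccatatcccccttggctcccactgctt

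The first 55 bases of each stretch were chosen because all copies share them, so only the bases after them could differ. Over the bases that 2 of these stretches have in common, any pair differed at 0 or 1 base. That of Serpina1c, the copy that rose, was the same as those of Serpina1b and Serpina1d, which did not pass the test, over 65 and 55 bases. For Serpina1d these were the chosen bases alone. The rest of the promoters was not compared base by base. Both strands of the whole promoters were searched for 3 motifs. TTGCNNAA, letters of sites for C/EBP factors, was in the promoters of Serpina1a, Serpina1b, Serpina1d and Serpina1e and in 10.8% of all 32851 promoters of the table, and not in that of Serpina1c. Counted from the RefSeq starts, that match lies after the start in Serpina1a and before it in the other 3. The gene annotation used elsewhere here starts Serpina1a further along the strand, at chr12:103863562. It starts Serpina1b and Serpina1e further upstream, at chr12:103830373 and chr12:103958975. With those starts the match would lie before the start in Serpina1a and after it in Serpina1b and Serpina1e. The placing therefore depends on the start taken. TTCNNNGAA, letters of STAT sites, was in the Serpina3g promoter alone among the 7 and in 8.30% of all, and TGTTTAC, letters of FOXA sites, in none of the 7 and in 3.65% of all. No match of a motif overlapped a match of a different motif, and a match describes the letters, not a bound site.

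The factors known to act on such genes were measured in the same libraries. Of 17 tested factors in a list of regulators of serpin genes, 1 rose and 2 fell (median log2 fold change -0.12). Stat3, the factor that carries the interleukin 6 signal, fell from 87.5 to 52.7 CPM (-0.73 ± 0.18, edgeR adjusted p = 0.0217), and the nuclear receptor Nr5a2 from 46.4 to 26.6 CPM (-0.80 ± 0.21, adjusted p = 0.0296). Cebpb rose from 115.4 to 193.4 CPM (0.74 ± 0.22, adjusted p = 0.0418). Across all tested genes 8.76% rose and 8.29% fell.

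Serpina3n belongs to the wider acute phase response of the liver, in which interleukin 6 signalling raises secreted plasma proteins. Of 14 tested genes of a list that holds this pathway and the interleukin 1 and tumour necrosis factor genes upstream of it, the interleukin 1 receptor Il1r1 rose (0.92 ± 0.23) and Ptpn11, Jak1, Stat3 and Socs3 fell, each by 0.73 to 0.89 on the log2 scale (list median -0.21). Of 22 tested acute phase proteins other than the members, 4 rose and 1 fell (median 0.26). Hamp, which encodes the iron hormone hepcidin, rose from 465.4 to 1794.4 CPM, Orm1, an orosomucoid, from 720.2 to 1213.7 CPM, Saa3 from 3.56 to 11.5 CPM and Orm3 from 3.32 to 6.20 CPM. Crp, C-reactive protein, fell from 411.8 to 188.9 CPM. The acute phase genes were thus called in both directions, where 8.76% of all tested genes rose and 8.29% fell. Their number depended on the tool, with 6 higher and 2 lower in DESeq2 and 4 higher and 2 lower in limma-voom.

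The proteases that these inhibitors act on were mostly without a call, as were most tested genes. Of 17 tested, Klkb1, plasma prekallikrein, rose from 176.8 to 447.0 CPM (1.34 ± 0.23, edgeR adjusted p = 0.00809), and none fell in edgeR (list median 0.08), where 2 fell at an unadjusted p under 0.05 and 2 fell in DESeq2 and in limma-voom. Alpha-1-antitrypsin is a glycoprotein that folds in the endoplasmic reticulum, and of 31 tested genes of export and quality control there, Edem2 rose and Canx and Edem1 fell (median -0.17). Canx, the lectin chaperone calnexin, fell from 247.7 to 122.8 CPM (-1.01 ± 0.26, edgeR adjusted p = 0.0270). Of 18 tested genes of glucocorticoid handling and response, read beside Serpina6, 4 fell (median -0.10) and none rose in edgeR, DESeq2 or limma-voom or at an unadjusted p under 0.05 in edgeR. Klf9, a target of the glucocorticoid receptor, fell from 55.1 to 8.22 CPM (-2.75 ± 0.46, edgeR adjusted p = 0.00693), and Hsp90aa1, Abcb1a and Errfi1 fell by 0.81 to 1.40 on the log2 scale.

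The members lie in a run of serpin genes at chr12:103614786-104414329, about 800 kb, with 28 serpin rows in the table. Of the 18 that are no members, 6 passed the filter, and 3 of these rose while none fell in edgeR, DESeq2 or limma-voom or at an unadjusted edgeR p under 0.05 (median 1.16). Serpina11 lies next to Serpina1e and stood at 27.5, 29.8 and 37.2 CPM in the wild types and at 93.6, 83.6 and 74.4 CPM in the knockouts (1.41 ± 0.19, edgeR adjusted p = 0.00432). Serpina9 rose from 0.822 ± 0.262 to 3.58 ± 1.29 CPM (2.11 ± 0.41, adjusted p = 0.0107). The pseudogene Serpina4-ps1 rose from 24.2 ± 14.8 to 168.3 ± 138.5 CPM (2.80 ± 0.64, adjusted p = 0.0177), with 321.5 CPM in knockout 1 and 52.2 CPM in knockout 2. Serpina12, known as the adipokine vaspin, was at 88.6 ± 10.9 and 156.7 ± 58.2 CPM and missed the threshold (0.82 ± 0.27, adjusted p = 0.0574).

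**Figure D3:**
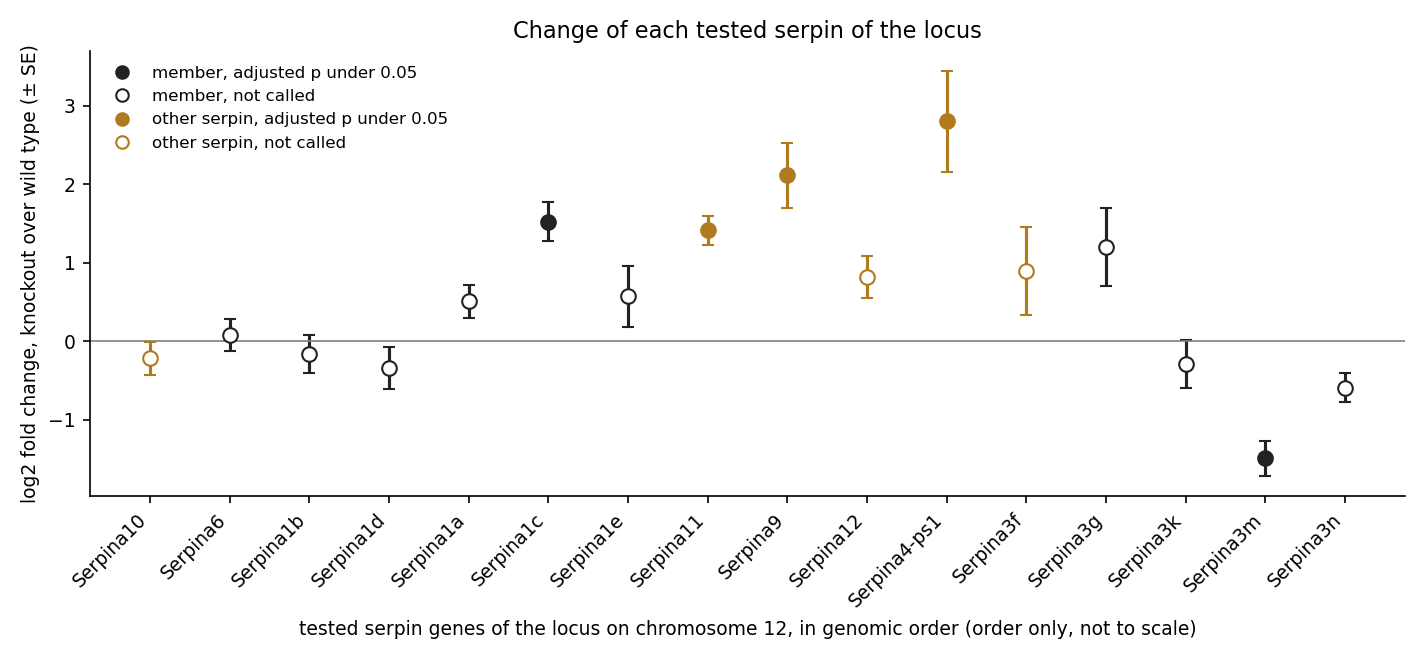
Log2 fold change, knockout over wild type, with its SE, for each of the 16 tested serpin genes of the locus in genomic order (spacing not to scale), with black for members, brown for other serpins and filled points for an edgeR adjusted p under 0.05. Serpina1c, Serpina11, Serpina9 and Serpina4-ps1 are filled above 0 and Serpina3m is filled below it, with genes without a call between them.

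Rows not named as serpins within 500 kb of the run showed no call, where 8.76% of all tested genes rose and 8.29% fell. Of 38 such rows, the pseudogene Gm8893 included, 11 passed the filter, and edgeR, DESeq2 and limma-voom each called 0 of them, where 2 had an unadjusted edgeR p under 0.05 (median log2 fold change -0.07). The Serpina1 pseudogene Gm8893, which shares sequence with all 5 Serpina1 rows, was level at 39.9 ± 2.70 and 37.0 ± 6.28 CPM (edgeR adjusted p = 0.702). B430119L08Rik, antisense to Serpina1c, was at 5.78 ± 0.485 and 6.02 ± 1.68 CPM (adjusted p = 0.892). Serpins outside the locus were mostly without a call too, as most tested genes were. Of 13 tested, Serpinb6a fell (-0.69 ± 0.19, adjusted p = 0.0379) and none rose in edgeR, DESeq2 or limma-voom or at an unadjusted edgeR p under 0.05 (median -0.47).

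Some genes followed the members across the 6 libraries more closely than others. Likeness was measured as the root-mean-square difference in centred log2 levels over 6 libraries, among 6675 genes with at least 10 CPM. For the Serpina1 sum the nearest were Mrpl14 (0.04), Lamtor4 (0.06) and Psenen (0.06), against a range of 0.70 for the sum itself. For Serpina3k, whose range was 1.22, they were Nudt7, Tubb4b and Cox7a2, at 0.08 each. For Serpina3n they were Hfe (0.04), Fkbp1a (0.05) and Fuca1 (0.05), and for Serpina6 they were Ap5s1 (0.05), Iqsec2 (0.08) and Paox (0.09). These are descriptions of 6 points chosen from many genes, with no test. Of the genes named, Fuca1 fell (edgeR adjusted p = 0.0493), and the others were not called.

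**Figure D4:**
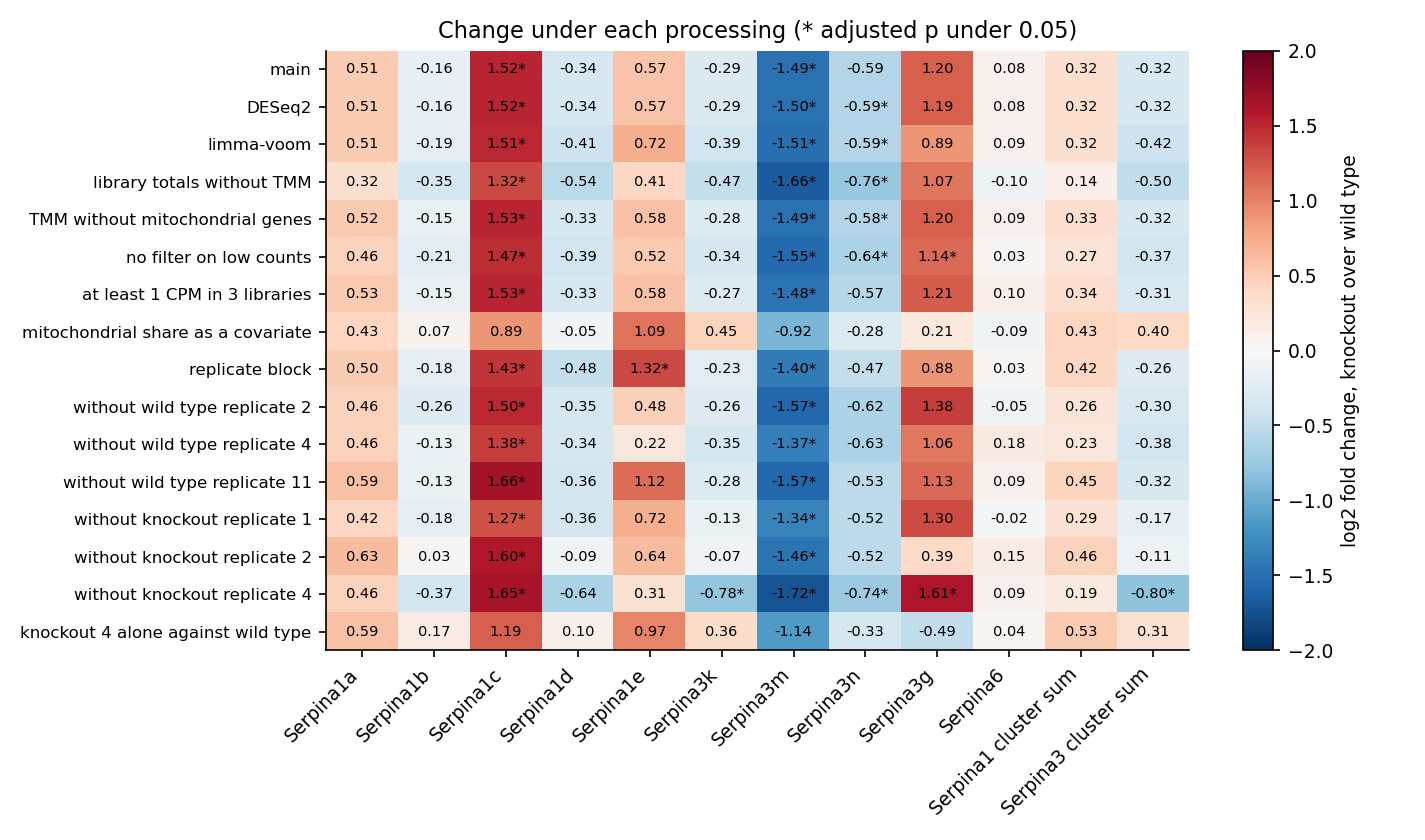
Log2 fold change, knockout over wild type, of each member and cluster sum (columns) under each way of processing (rows), in red above 0 and blue below it, with a star for an adjusted p under 0.05. The columns of Serpina1c and Serpina3m keep their colour in every row and lose their star only with the mitochondrial covariate and in knockout 4 alone, while Serpina3k and the Serpina3 sum change colour in those rows.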

How the data were processed

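The authors deposited raw counts per gene, whole numbers with 1 column per liver library and no normalization. Per the submitters' processing notes, reads were placed on mm10. Which aligner, counter and strand setting served, and how multi-mapping reads were handled, is not given in the sources used here. Counts were tested in R 4.3.3 with edgeR 4.0.16 (quasi-likelihood F test, TMM scaling, filterByExpr, Benjamini-Hochberg adjustment over 13304 genes, no covariate, 3 against 3 libraries). SE is the absolute log2 fold change over the square root of F, and 95% intervals use its t quantile. Sums replaced their rows in the whole table. DESeq2 1.42.0, limma 3.58.1 (voom), other scalings, filters and covariates, a replicate block and leaving out each library were alternatives. No library pair of a genotype agreed within sampling noise, as 1 library deposited under 2 names would (chi-square of 21.0 to 170.6 per degree of freedom). Counts were also simulated for 13095 genes, with 100 drawn to change at each fold and the same spread set for both genotypes. There the test recovered 42.1% of 2-fold and 95.7% of 4-fold changes, with 8 false among 138 calls. Far fewer genes changed there than were called in the data, and the real knockouts scattered more than the wild types. These rates may therefore differ in the data. Loops and coding sequences came from GENCODE M21 and GRCm38, and 54165 of the 54232 identifiers matched. The text names all members, called serpins of the locus, and up to 4 called genes of each list by smallest p. Added with values in view were Socs3, Orm1, Serpina12, Gm8893 and B430119L08Rik. The members and lists were chosen with earlier results of these data known. Part of the list of regulators is not reported here.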

Additional observations from a re-analysis of the deposited data

How the results depend on the processing

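The Serpina1 sum kept its direction and stayed short of the threshold under all 17 alternatives run (0.14 to 0.53 on the log2 scale). Among these, adding Serpina1f, which had 0 counts in every library, could not move the sum. Adding Gm8893, at a mean of 39.9 CPM in the wild types, could hardly move it. The number of members called higher (1) was 2 with no filter on low counts, 2 with the replicate block, 1 to 2 when each library was left out, 0 with the mitochondrial covariate and 0 in knockout 4 alone, a comparison added after seeing the data. The number called lower (1) was 2 under DESeq2, limma-voom, library totals without TMM, TMM without mitochondrial genes and no filter, 1 to 3 when each library was left out, and 0 in those last 2 fits. The Serpina3 sum ran from -0.80 (without knockout 4, adjusted p = 0.00562) to -0.11 when each library was left out, and was 0.40 with the mitochondrial covariate and 0.31 in knockout 4 alone. Signs also turned with the mitochondrial covariate for Serpina1b (0.07), Serpina3k (0.45) and Serpina6 (-0.09), and in knockout 4 alone for Serpina1b (0.17), Serpina1d (0.10), Serpina3k (0.36) and Serpina3g (-0.49). With each library left out, Serpina1b ran from -0.37 to 0.03 (without knockout 2) and Serpina6 from -0.05 (without wild type 2; -0.02 without knockout 1) to 0.18, and Serpina6 was -0.10 with library totals. The cause of these shifts was not tested. The covariate fit called 0 genes, so its lost calls say nothing about stability, and the knockout 4 fit, which assumes that 1 library varies like the wild types, called 25. Over all genes edgeR called 1165 higher and 1103 lower, and with library totals 690 and 1566, where the median shifted from 0.01 to -0.16. Without knockout 4 the calls numbered 4046 against 2268. The replicate block, in which only numbers 2 and 4 occur in both genotypes, called 1686 genes. Deviations from the genotype means correlated at -0.05 for number 2 and at 0.06 for number 4. With 3 libraries per genotype such values cannot settle whether a number pairs samples, and the labels do not say. Serpina3g had 40 to 265 counts, the fewest of the members, and its knockout SD was 6.01 on a mean of 7.71 CPM.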
